A study of Mus musculus with 8 samples.

Results

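The values described are those of 6 bulk RNA libraries of lung group 2 innate lymphoid cells (ILC2s), out of 8 samples in the series. They are the columns of the deposited expression matrix named for dopamine (3 libraries) and for PBS (3 libraries). All 6 came from female wild type C57BL/6 mice that received IL-33 through the nose on 3 consecutive days; the PBS group received the vehicle PBS with it, and the dopamine group received dopamine with it. IL-33 was thus common to both groups, and no bulk library of untreated mice was used here. Each library was made by Smart-Seq2, a full-length method that copies polyadenylated RNA, from 2000 sorted cells. The labels call the libraries biological replicates but do not say how many mice went into each, nor the age of the mice. The other 2 samples are a pool of droplet-sequenced single cells from male mice and its antibody hashtag library, used here for values side by side.

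ILC2s are lymphocytes without antigen receptors of their own. They sit in barrier tissues, carry the IL-33 receptor, depend on the transcription factor Gata3 and release interleukin 5, interleukin 13 and amphiregulin when epithelial cells release IL-33. Dopamine is a catecholamine made from tyrosine by tyrosine hydroxylase (Th). Its D1-like receptors (Drd1, Drd5) raise cyclic AMP and its D2-like receptors (Drd2, Drd3, Drd4) lower it; cyclic AMP activates protein kinase A, which phosphorylates CREB, the factor that binds the promoter element TGACGTCA. Activated ILC2s burn fatty acids, glucose and amino acids in mitochondria, and the title of the series places the action of dopamine on mitochondrial activity, which is the question the bulk comparison addresses.

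Values are TPM (transcript abundances scaled to the same total in each library), rescaled in each library by a factor set on 8060 genes present in all libraries, so that typical genes stand at the same level. Levels are in this rescaled TPM, and differences are log2 fold changes of (rescaled TPM + 1), dopamine over PBS, with the standard error (SE) of limma. A gene was called at a Benjamini-Hochberg adjusted p under 0.05. A gene is described as without overlap when all 3 dopamine libraries lay above, or all below, all 3 PBS libraries. Of 11175 genes tested, limma called 5 (0.0447%), 3 as higher with dopamine (0.0268%) and 2 as lower (0.0179%). Without overlap, 1669 were higher (14.9%) and 1553 lower (13.9%), and these shares are the background for every list below. Of the 11175, 129 were under 1 rescaled TPM in all PBS libraries and 63 in all dopamine libraries. These were tested only because of the other group. Of the remaining 10983, 1540 were higher and 1490 lower without overlap. The median of all tested genes was 0.13, against 0.49 in the deposited TPM before rescaling.

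The libraries were not alike within groups. PBS library 2 stood apart on the first principal component (43.2% of the variance), at -87.2 against -15 and -32.5 in the other PBS libraries and 34.9 to 60.9 with dopamine. It also held the fewest genes with a deposited TPM of at least 1. These counts were 11384, 9822 and 10525 in PBS libraries 1, 2 and 3. In dopamine libraries 1, 2 and 3 they were 11502, 11529 and 11745, so the groups did not overlap (exact two-sided permutation p = 0.1). Without PBS library 2, limma called 0 genes (1563 at an unadjusted p under 0.05), and 17.2% of 10958 genes were higher and 16.3% lower without overlap. Groups of fewer libraries lie apart more easily, so these shares cannot be set against those with all libraries. Because PBS library 2 stood apart, medians of the lists described below are also given without it. The number of genes called rested on single libraries: without PBS library 1 it was 429 higher and 446 lower, without PBS library 3 it was 41 and 14, and without dopamine library 2 it was 0 and 0 by limma (1567 at an unadjusted p under 0.05). Without dopamine library 1 limma called 1 gene higher and 4 lower, and without dopamine library 3, 1 and 2. Of the 5 genes called with all libraries, all 5 were called without PBS library 1 or 3, 1 without dopamine library 3, and 0 without any other single library. Cytosolic ribosome genes took 31.1%, 39.5% and 35.6% of TPM across the PBS libraries (1, 2 and 3 in turn, as in every list of values below) and 28.3%, 28% and 29.3% across the dopamine libraries (exact two-sided permutation p = 0.1, the smallest that 3 against 3 can give). The ribosomal RNA entry CT010467.1 took 3.63%, 3.48% and 4.02% of TPM with PBS and 5.68%, 6.12% and 5.62% with dopamine (exact two-sided permutation p = 0.1). Since TPM are shares, fewer cells of a type and less RNA per cell cannot be told apart in these libraries.

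The direction of a gene's difference went with the length of its transcript. Protein-coding genes were cut into 5 bins of nearly equal size by transcript length in GENCODE M21. In the shortest bin, the 2002 genes of 204 to 1916 bases had a median log2 fold change of -0.57, with 34.6% lower and 3% higher without overlap. In the longest bin, the 2000 genes of 5105 to 40378 bases had a median of 0.46, with 3.7% lower and 27.2% higher. The 3 bins between had medians of -0.08, 0.29 and 0.39. Without PBS library 2 the medians of the shortest and longest bins were -0.43 and 0.39. In the droplet hashtags, which count molecules at one end of the transcript, they were -0.05 and 0.03. Respiratory chain and ribosomal transcripts are short, and many receptors and chromatin genes are long, so the median of each list described is also given with a fitted trend on length and GC content removed. After that removal the median of all tested genes was -0.02, and 10.4% were higher and 13.5% lower without overlap.

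**Figure D1:**
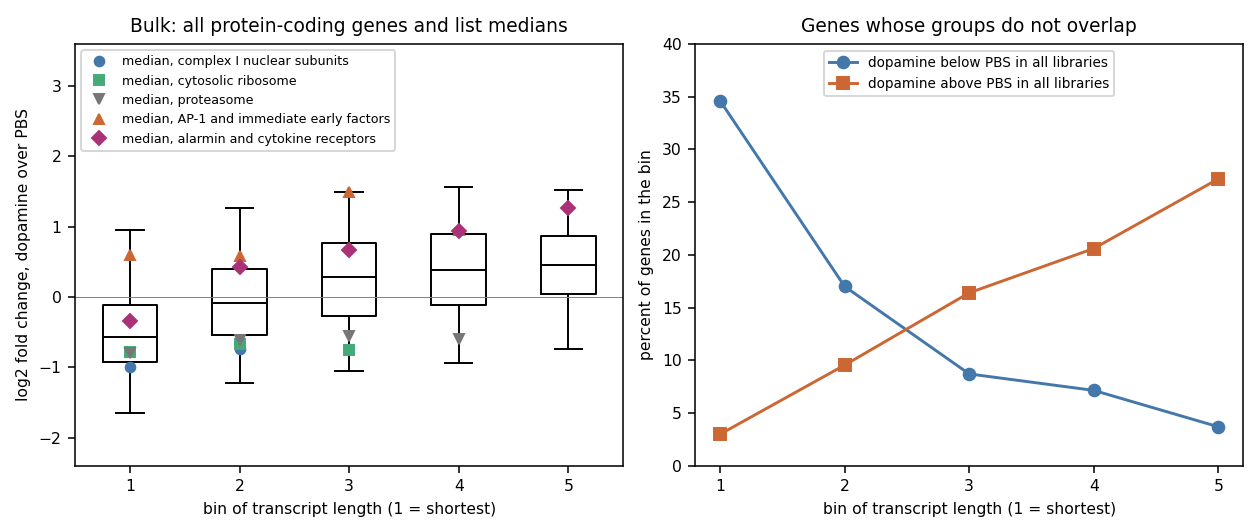
Left, log2 fold changes (dopamine over PBS) of tested protein-coding genes by bin of transcript length; boxes span the quartiles, lines inside mark medians, whiskers reach the percentiles 5 and 95, and symbols mark the medians of 5 gene lists in bins where at least 3 members fall. Right, the percent of genes in each bin whose groups do not overlap, which goes from 34.6% lower and 3% higher in the shortest bin to 3.7% lower and 27.2% higher in the longest.

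The called genes were AA467197 and Mrps12, which fell, and Trav11d, Trbv13-2 and Gm10801, which were higher. AA467197 (chr2:122636986-122641191, GRCm38) is the mouse counterpart of the gene for a small mitochondrial protein related to the cytochrome c oxidase subunit Ndufa4. It stood at 107, 204 and 68.4 rescaled TPM with PBS and at 13.6, 8.99 and 11.4 with dopamine. The lowest PBS library was thus above every dopamine library (log2 fold change -3.24 ± 0.41 SE, n = 3 per group, adjusted p = 0.0496 by limma). Ndufa4 itself, looked up after these values were seen, overlapped between the groups, at 381, 714 and 524 with PBS and 432, 245 and 340 with dopamine. Without PBS library 2 the difference of AA467197 was -2.86, and with the length and GC trend removed -2.90.

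The transcript of AA467197 also spans the hairpin of microRNA 147 on the same strand (chr2:122640803-122640881). The mature 5′ arm is printed because the gene is known for both of its products; capitals mark the seed, bases 2 to 8. It is given 5′ to 3′ from RefSeq on GRCm38.p6 (chr2:122640814-122640837, plus strand).
mmu-miR-147-5p: uGGAAACAuuucugcacaaacuag
The hairpin gene Mir147 was listed at 0 in all 6 libraries, and this kind of library does not capture mature microRNAs, so the values bear on the host transcript and not on the microRNA.

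Mrps12 (chr7:28739641-28741820), a protein of the small subunit of the mitochondrial ribosome, stood at 148, 165 and 126 rescaled TPM with PBS and at 37.5, 31.5 and 38.9 with dopamine. The spread inside each group was small against the gap between them (-1.99 ± 0.26 SE, adjusted p = 0.0496 by limma). With the length and GC trend removed the difference was -1.42. Gm10801 (chr2:98662237-98664083) is a predicted gene that rose from 36.1, 175 and 177 with PBS to 3208, 2677 and 1279 with dopamine (4.40 ± 0.59 SE, adjusted p = 0.0496 by limma). Its neighbour Gm10800 stood at 4.54, 75.3 and 62.4 with PBS and 386, 351 and 152 with dopamine. These predicted genes have near-identical copies, among which the counting may have split reads, so the level of each is uncertain.

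The other called genes code for parts of the T cell receptor, which ILC2s do not display. Trav11d (chr14:52824357-52824912), an alpha chain V segment, was at 0 throughout the PBS group and at 14, 67.7 and 17.8 rescaled TPM with dopamine. Trbv13-2 (chr6:41121396-41121832), a beta chain V segment, was likewise at 0 with PBS and at 14.2, 27.6 and 9.05 with dopamine. Both were tested only because the dopamine libraries reached the minimum of 1, so their place among the called genes is no separate support. No fold is given against a group listed at 0. The end of Trav11d is printed because a second segment, Trav11, reads the same: over the 342 bases aligned between the GENCODE transcripts, 342 were identical. The bases below lie at chr14:52824853-52824912 (GRCm38, plus strand), are given 5′ to 3′ and carry no capitals because no base differs.
Trav11d: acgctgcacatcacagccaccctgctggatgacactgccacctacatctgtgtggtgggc
Trav11 was listed at 0 in all 6 libraries, so which of the pair the reads came from is uncertain.

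**Figure D2:**
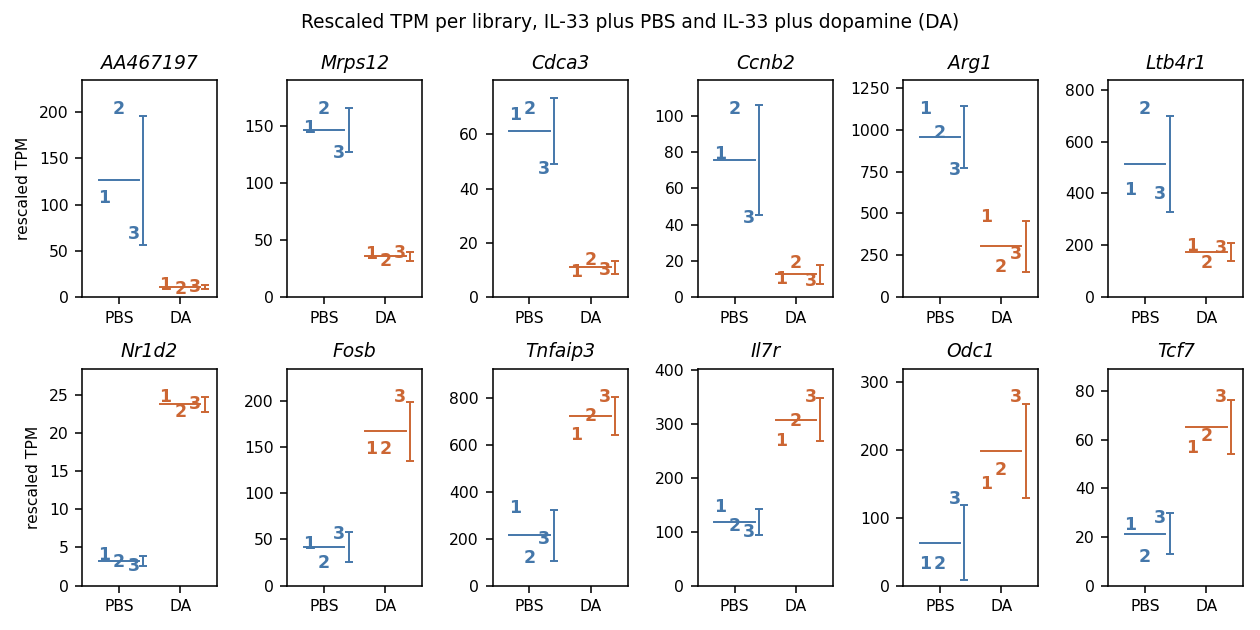
Rescaled TPM of 12 genes in the bulk libraries; numbers 1 to 3 are the libraries of each group (PBS on the left of each panel, dopamine, DA, on the right), horizontal lines are group means and bars their SD, and each axis starts at 0. The groups do not overlap in any of the 12 panels, for example AA467197 at 68.4 to 204 with PBS and 8.99 to 13.6 with dopamine.

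Below these, by order of p, the next genes higher in all dopamine libraries were led by Nr1d2, a nuclear receptor that represses clock genes, which stood at 3.95, 3.06 and 2.58 with PBS and at 24.7, 22.7 and 23.8 with dopamine. Its 6 values formed a pair of tight groups, yet it missed the threshold (2.57 ± 0.38 SE, adjusted p = 0.0538 by limma). Cd163l1, a scavenger receptor typical of gamma delta T cells, stood at 5, 5.08 and 20 with PBS and 59.8, 230 and 176 with dopamine. The others were Syne2, which ties the nucleus to the cytoskeleton (log2 fold change 2.76), Bmp2, a secreted growth factor (2.90), the kinase gene Prkx (2.17) and Rasa3, which switches off small GTPases (2.04). Fosb, an AP-1 subunit, had 2.04, Il21r, the interleukin 21 receptor, 1.90, and the long non-coding RNA Lncpint 1.66. The adjusted p of these ran from 0.0538 to 0.0869 by limma.

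On the lower side, Cdca3, which triggers entry into mitosis, stood at 67.1, 69.5 and 47.4 with PBS and 9.34, 13.7 and 10.1 with dopamine (-2.37 ± 0.32 SE, adjusted p = 0.0521 by limma). Snhg3, a host of small nucleolar RNAs, stood at 68.2, 64.6 and 45.9 with PBS and 10.1, 3.03 and 1.66 with dopamine. Crabp2, a carrier of retinoic acid, stood at 21.4, 11.8 and 5.68 with PBS and was listed at 0 in every dopamine library. Cenps, a centromere protein, was at 13.2, 11 and 8.75 with PBS and listed at 0, 0 and 0.812 with dopamine. The rest were the chemokine gene Ccl24 (log2 fold change -3.66), the myosin light chain Myl4 (-3.08), the cyclin Ccnb2 (-2.47), Zswim7 (-2.46), the metallothionein Mt2 (-2.39) and Cisd1, an iron-sulfur protein of the outer mitochondrial membrane (-2.22). Their adjusted p ran from 0.0521 to 0.0754 by limma, so none of them was called. Crabp2, Cenps and Myl4 were under 1 in all dopamine libraries. They were tested only because the PBS libraries reached the minimum of 1, so their place among these genes is no separate support.

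Dopamine's own receptors were at or near 0. Drd1, Drd2, Drd3 and Drd5 were listed at 0 in all 6 libraries, and Drd4 was listed at 0.329 rescaled TPM in PBS library 2 and at 0 in the other 5. Th was at 0 throughout. The depth behind these values is unknown, and a receptor can be present at a level these libraries do not show. Slc18a2, the vesicle transporter of monoamines, overlapped at 7.36, 1.42 and 4.47 with PBS and 14.7, 10.8 and 5.75 with dopamine.

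The list of cyclic AMP production, protein kinase A and cyclic AMP breakdown had 10 of 28 tested members higher and 0 lower without overlap, and none was called. Its median was 0.61 against 0.13 over all genes, 0.54 without PBS library 2 and 0.16 with the length and GC trend removed, where 2 were higher and 1 lower. Pde2a, a phosphodiesterase that breaks cyclic AMP down, stood at 0.275, 0 and 5.69 with PBS and 17.7, 44.2 and 18.5 with dopamine. Prkacb, a catalytic subunit of protein kinase A, stood at 35, 15.8 and 7.98 with PBS and 41.2, 36.6 and 47.9 with dopamine. Crebbp, the co-activator of CREB, had a log2 fold change of 0.94 and the phosphodiesterase gene Pde4b 0.72. Among the genes known to answer cyclic AMP, 7 of 19 were higher and 1 lower without overlap (median 0.54, 0.44 without PBS library 2, 0.23 with the trend removed). The lists share members. Of the 7, Pde4b and Pde3b also count in the list before, and Nr4a1, Nr4a2 and Fosl2 in the list of AP-1 and immediate early factors below. Counts in these lists are thus not separate results. Nr4a2 and Nr4a1 are nuclear receptors that need no ligand. Nr4a2 stood at 31.8, 13.9 and 42.9 with PBS and 68.2, 89.7 and 95.2 with dopamine, and Nr4a1 at 701, 351 and 955 with PBS and 1396, 1449 and 2022 with dopamine. Fosl2, an AP-1 subunit, had 1.19, and Crem, a cyclic AMP-responsive repressor, overlapped between the groups (0.35). Dusp4, a phosphatase of MAP kinases, was the member lower without overlap (-1.05).

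Promoter windows were read for this list because CREB binds a known sequence. RefSeq windows of 300 bases (250 before to 50 after the start site, GRCm38.p6) were found for 13 of the 19 tested members, 17 windows in all. The full element TGACGTCA, which is its own complement, was in 2 of these windows (11.8%). It was in 1.79% of all 32851 windows and in 3.22% of the 10777 windows of tested genes. The shorter TGACG, which lies inside the full element and was searched on both strands (as CGTCA on the other), was in 64.7%, against 20.8% and 32.4%. The 2 members with the full element and the 2 with the shorter form and the smallest p are printed 5′ to 3′ on the gene's strand with the match in capitals. The stretches are Dusp1 (chr17:26508597-26508626, minus strand), Areg (chr5:91139527-91139556, plus strand), Nr4a2 (chr2:57124188-57124214, minus strand) and Nr4a1 (chr15:101266602-101266628, plus strand).
Dusp1: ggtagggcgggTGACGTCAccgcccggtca
Areg: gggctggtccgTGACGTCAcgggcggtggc
Nr4a2: cgccaggccggCGTCActggcagggcg
Nr4a1: cgcgctccctgCGTCAatggaaccccg
The matches begin 143, 61, 200 and 233 bases before the start site. The 2 genes with the full element stood on opposite sides: Dusp1 was at 767, 918 and 1685 with PBS and 1571, 1965 and 2099 with dopamine, and Areg at 928, 1419 and 1387 with PBS and 999, 527 and 714 with dopamine. In both the groups overlapped. A match describes the letters of the window and shows no binding. The list was chosen from genes known to answer cyclic AMP, so its higher shares of these elements do not bear on dopamine.

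AP-1 and immediate early factors, transcription factors induced within minutes of a stimulus, had 16 of 30 members higher and 2 lower without overlap. The median was 0.83, with 0.66 once PBS library 2 was left out and 0.69 with the length and GC trend removed, where 14 were higher and 2 lower. Mafk, a partner of leucine zipper factors, stood at 25.2, 3.24 and 11.6 with PBS and 65, 86.4 and 60.3 with dopamine. Klf10 stood at 23.4, 5.93 and 12.3 with PBS and 42.8, 58.5 and 49.3 with dopamine. Both were lowest in PBS library 2, and without it their log2 fold changes went from 2.66 to 1.94 and from 1.95 to 1.48. Batf, an AP-1 factor of lymphocyte activation, was lower, at 292, 612 and 282 with PBS and 150, 127 and 124 with dopamine (-1.47). Fos overlapped, at 497, 998 and 1220 with PBS and 906, 1254 and 1299 with dopamine.

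NF-kB subunits, inhibitors and targets had 12 of 28 members higher and 2 lower without overlap (median 0.84, 0.57 without PBS library 2, 0.59 with the trend removed). Tnfaip3, which ends NF-kB signalling, stood at 332, 116 and 199 with PBS and 642, 723 and 805 with dopamine. Ikbke, a kinase of the pathway, stood at 12.2, 5.88 and 9.61 with PBS and 36.4, 22.5 and 42 with dopamine. Tnf had a log2 fold change of 1.24. The mRNA decay list had 7 of 24 higher and 2 lower (median 0.55, 0.42 without PBS library 2, 0.21 with the trend removed). The JAK-STAT and SOCS feedback list had 6 of 24 higher and 2 lower (median 0.39, 0.16 without PBS library 2), and 2 higher and 4 lower with the trend removed (median 0.04). Zfp36, which destabilises cytokine mRNA, stood at 172, 116 and 286 with PBS and 422, 500 and 577 with dopamine, and Socs3, an inhibitor of JAK kinases, at 66.1, 14.3 and 38.2 and 98.6, 175 and 140. The kinase gene Jak1 had 1.37. No gene of these lists was called by limma, with adjusted p of 0.0925 for Tnfaip3 and Jak1 and 0.0993 for Socs3.

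Type 2 cytokine genes showed no common direction. Il5, which draws eosinophils, was lower in each dopamine library, at 589, 597 and 690 with PBS and 502, 201 and 533 with dopamine (-0.72 ± 0.37 SE, adjusted p = 0.271 by limma). Il13, which drives mucus and airway reactivity, was lower too, at 26.6, 43.9 and 39.7 with PBS and 20.2, 25.5 and 17.3 with dopamine (-0.77 ± 0.33 SE, adjusted p = 0.209 by limma). Both separations rested on the scaling. In the deposited TPM the groups overlapped for Il5 (log2 fold change -0.27) and Il13 (-0.33), as they did with the length and GC trend removed, and for Il5 also with quantile normalization (-0.28). Without PBS library 2 the values were -0.77 and -0.65. Il4 overlapped, at 50.6, 20.2 and 55.3 with PBS and 52.7, 41.5 and 53 with dopamine. Csf2, a growth factor of myeloid cells, was low and overlapped, at 5.43, 0 and 2.85 with PBS and 1.91, 0 and 6.75 with dopamine. Il9 was listed at 0, 16.8 and 8.55 with PBS and at 0 in all dopamine libraries. Areg, the tissue repair factor amphiregulin, had -0.76 with overlap.

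Other secreted factors stood on both sides. Of the 35 tested members of the secreted effector list, 4 were higher and 3 lower without overlap (median 0.16, 0.03 without PBS library 2). The counts turned with the scaling, to 7 higher and 0 lower with the length and GC trend removed (median 0.40) and to 7 and 2 with quantile normalization, where 12.9% and 13.5% of all genes were higher and lower. Il5, Il13 and Penk, the precursor of enkephalins, were the lower ones, and Penk stood at 19, 9.37 and 12.6 with PBS and 3.92, 0 and 8.43 with dopamine, with overlap in the deposited TPM. The higher ones were Gzma, Tnf, Ccl5 and the growth factor gene Hbegf, named after its values were seen. Gzma, a granzyme of cytotoxic cells, stood at 2.32, 12.9 and 23.5 with PBS and 116, 63.9 and 57.9 with dopamine. Ccl5, a chemokine of T cells and NK cells, stood at 39.1, 123 and 803 with PBS and 1029, 1544 and 856 with dopamine.

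ILC2 transcription factors had 13 of 40 members higher and 4 lower without overlap (median 0.59, 0.57 without PBS library 2). With the trend removed 11 were higher and 8 lower (median 0.19). Zbtb16 was under 1 rescaled TPM in all PBS libraries and so was tested only because of the dopamine libraries. Of the other 39, 12 were higher and 4 lower (median 0.58). Gata3, on which the lineage depends, was lower in each dopamine library at 404, 457 and 539 with PBS and 338, 232 and 396 with dopamine (-0.56 ± 0.28 SE, adjusted p = 0.257 by limma). In the deposited TPM and with quantile normalization its groups overlapped (-0.11 in each). Pparg, a lipid-sensing receptor that ILC2s use to take up fatty acids, was lower by more, at 86.7, 68.8 and 57 with PBS and 33.1, 18.6 and 23.2 with dopamine (-1.49). Among the higher members, Tcf7, a factor of early lymphocytes, stood at 24.7, 11.8 and 27.7 with PBS and 56.5, 61.6 and 77.5 with dopamine, the lymphocyte factor Ets1 had a log2 fold change of 1.64, and the chromatin organiser Satb1 1.57. Rora, a factor that ILC2s need to develop, overlapped (0.54), as did Myc (0.22).

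Alarmin and cytokine receptors were the list of surface genes with the most members on the higher side, 16 of 36 without overlap and 1 lower. The median was 0.94, 0.63 without PBS library 2 and 0.56 with the trend removed. Of the 36, 1 was under 1 rescaled TPM in all PBS libraries and so was tested only because of the dopamine libraries. Of the other 35, 15 were higher and 1 lower (median 0.94). Il7r, the receptor for a survival cytokine of lymphocytes, stood at 145, 111 and 99.4 with PBS and 269, 305 and 350 with dopamine (1.38 ± 0.26 SE, adjusted p = 0.0923 by limma). Il12rb2, which receives interleukin 12 in type 1 lymphocytes, stood at 1.36, 0 and 0.8 with PBS and 15.4, 19 and 6.22 with dopamine. The member lower without overlap was Il1r2, the decoy receptor of interleukin 1, at 255, 439 and 363 with PBS and 159, 51.7 and 35.8 with dopamine (-2.35). Counting overlapping members too, 25 had a positive and 11 a negative log2 fold change. Il1rl1, the IL-33 receptor itself, overlapped at 164, 91.4 and 63.2 with PBS and 114, 60.8 and 95.8 with dopamine.

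Of the receptors for lipid mediators, neuropeptides and hormones, 7 of 26 were higher and 5 lower without overlap (median 0.18, 0.01 without PBS library 2). With the trend removed 2 were higher and 6 lower (median -0.02). Ltb4r1, the leukotriene B4 receptor, stood at 414, 727 and 399 with PBS and 198, 133 and 188 with dopamine (-1.53). Ramp1, a component of the receptor for the neuropeptide CGRP, had -1.47, and the cysteinyl leukotriene receptor gene Cysltr2, at 61.7, 47.6 and 39.4 against 22.7, 20.6 and 20.9, had -1.15. Ptger1, a prostaglandin E receptor, was among the higher ones at a low level, 0, 0 and 1.28 with PBS and 2.22, 4.69 and 4.33 with dopamine.

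Among surface and effector markers of activated ILC2s, 9 of 42 were lower and 6 higher without overlap (median -0.10, -0.04 without PBS library 2, -0.15 with the trend removed). Arg1, the arginase that ILC2s use to break down arginine, stood at 1126, 978 and 759 with PBS and 476, 180 and 256 with dopamine. It was lower in every dopamine library (-1.75 ± 0.36 SE, adjusted p = 0.0925 by limma), and by -1.74 without PBS library 2. Lgals1, the galectin that lymphocytes make on activation, stood at 2312, 5156 and 3455 with PBS and 1536, 1382 and 1343 with dopamine. Klrg1, a marker of mature ILC2s, overlapped by the width of one library, at 239, 445 and 524 with PBS and 241, 110 and 166 with dopamine (-1.22). Neurl3 was higher, at 37, 28.4 and 49.3 with PBS and 85.8, 98.8 and 90.5 with dopamine.

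Of 30 co-stimulatory and inhibitory receptors, 7 were higher and 7 lower without overlap (median 0.14, 0.07 without PBS library 2, 0.36 with the trend removed). Pdcd1 (PD-1) stood at 370, 508 and 368 with PBS and 194, 159 and 163 with dopamine, and Ctla4 at 144, 114 and 90.3 and 61, 27.8 and 22.3. Tnfrsf4, the OX40 receptor, had -2.78. Tnfrsf1b, a receptor for tumour necrosis factor, was higher at 53.1, 25.4 and 49.2 with PBS and 101, 130 and 119 with dopamine. Of the members named here, the inhibitory receptors Pdcd1 and Ctla4 were both lower.

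Genes of migration and tissue residency had 13 of 35 members higher and 0 lower without overlap, with a median of 0.50, 0.42 without PBS library 2 and, once the length and GC trend was removed, 0.09. Of them 2 were under 1 rescaled TPM in all PBS libraries and so were tested only because of the dopamine libraries; of the other 33, 11 were higher (median 0.36). S1pr1, which guides lymphocytes out of tissue, stood at 21.3, 6.63 and 32.7 with PBS and 72.5, 115 and 70.4 with dopamine. Itgae, an integrin chain that binds epithelial E-cadherin, stood at 33.4, 8.17 and 16.2 with PBS and 72.3, 64.8 and 57 with dopamine. Itga2 and Itgb1, which pair as a collagen receptor, were both higher (2.20 and 1.63). These genes are shared with T cells and NK cells, whose markers are described below.

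**Figure D3:**
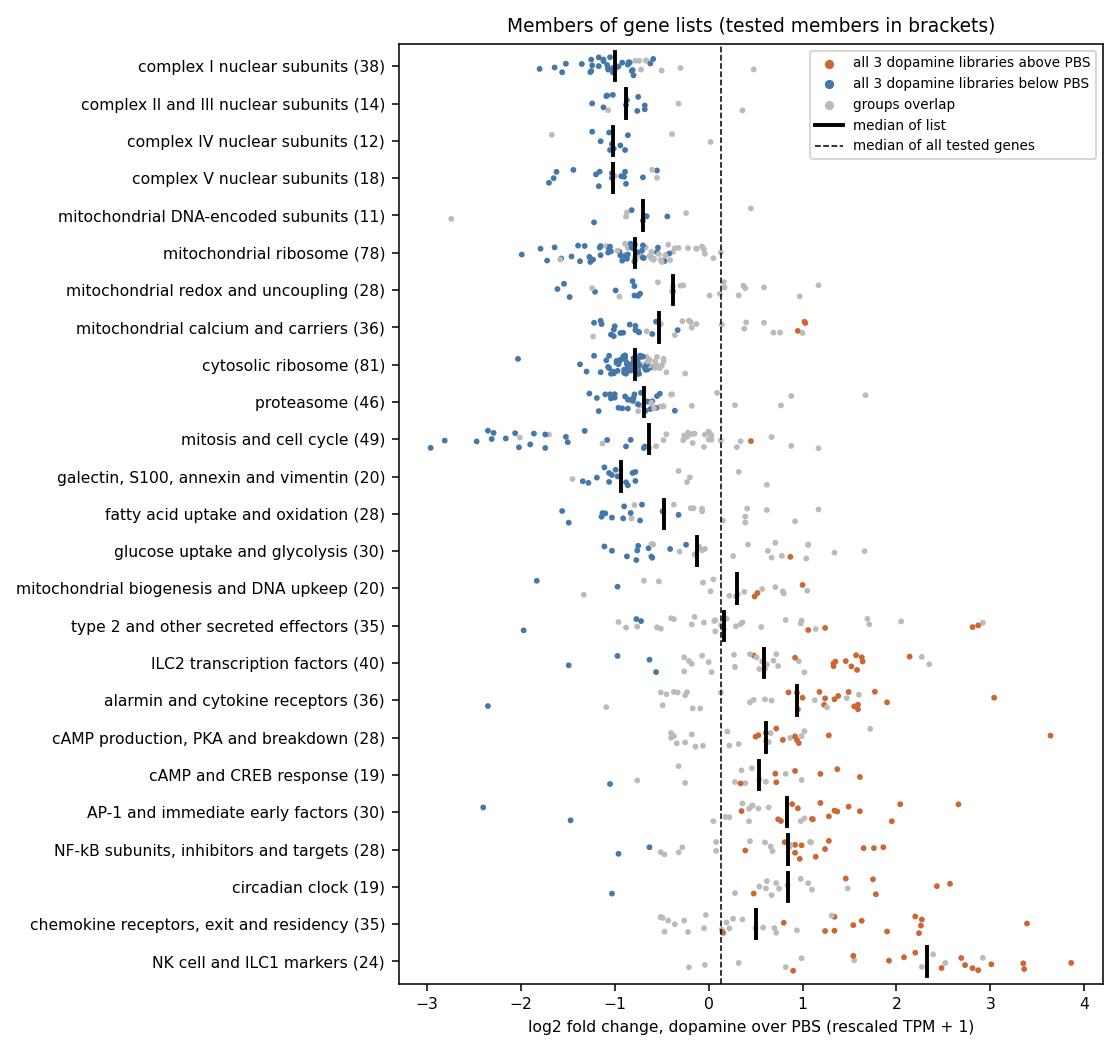
Log2 fold changes (dopamine over PBS) of the tested members of 25 gene lists, 1 point per gene; orange points have all dopamine libraries above all PBS libraries, blue points all below, grey points overlap, and bars mark list medians. Complexes I to V have medians of -0.88 to -1.02, while the dashed line, the median of all 11175 tested genes, lies at 0.13.

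The respiratory chain, which passes electrons from NADH and succinate to oxygen and uses the energy to make ATP, lay below the other genes in all of its complexes. Of its 82 tested nuclear genes, 65 were lower and 0 higher without overlap (79.3%, against 13.9% of all genes), with a median of -1.01. No member was called by limma. The chain's nuclear genes took 2.77%, 3.18% and 2.59% of TPM with PBS and 2.15%, 1.88% and 2.03% with dopamine (exact two-sided permutation p = 0.1). Most are short: 62 were in the shortest bin, where 80.6% were lower without overlap, against 30.7% of the 1812 other genes of that bin outside the respiratory, ribosome and proteasome lists. The medians there were -0.99 and -0.51.

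Complex I, which accepts electrons from NADH, had 30 of 38 members lower and 0 higher (median -1.0, -0.78 without PBS library 2, -0.63 with the length and GC trend removed). Ndufc2 stood at 118, 258 and 151 with PBS and 33.1, 64.5 and 48.2 with dopamine. Ndufv2, a core iron-sulfur subunit, stood at 135, 196 and 152 with PBS and 70.5, 64.8 and 62.3 with dopamine, and Ndufb6 at 147, 248 and 137 and 73.6, 46.6 and 59.1. PBS library 2 was the highest library for each, and the other PBS libraries still lay above all dopamine libraries. Complexes II and III had 11 of 14 lower (median -0.88), among them the succinate dehydrogenase subunit Sdhb (-1.08) and Uqcrfs1, the Rieske iron-sulfur protein (-0.87). Complex IV, which reduces oxygen, had 9 of 12 lower (median -1.02), with Cox6b1 at 691, 1152 and 830 with PBS and 440, 420 and 390 with dopamine. Complex V, the ATP synthase, had 15 of 18 lower (median -1.02). Atpif1, the natural inhibitor of the enzyme, went with the subunits at 296, 607 and 290 with PBS and 156, 78.1 and 145 with dopamine. Without PBS library 2 the medians of complexes II and III, IV and V were -0.61, -0.79 and -0.80, and with the trend removed -0.56, -0.45 and -0.75.

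The 11 tested subunits that mitochondria encode themselves had 6 members lower without overlap and a median of -0.70 (-0.49 without PBS library 2, -0.63 with the trend removed). Mt-Atp6 stood at 7406, 14672 and 8179 with PBS and 4531, 6018 and 2573 with dopamine, and mt-Cytb had -0.82. With quantile normalization, which gives all libraries the same distribution, the median of this list was -0.07 and no member was without overlap, while complex I kept a median of -0.64. Factors that assemble the chain had 11 of 56 lower and 0 higher (median -0.53, -0.36 without PBS library 2, -0.37 with the trend removed), among them Uqcc2 (-1.65), Coa3 (-1.37) and the copper chaperone Cox17 (-1.11).

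The machinery that makes and imports mitochondrial proteins was lower along with the chain. Mitochondrial ribosome proteins had 41 of 78 lower and 0 higher without overlap (median -0.78, -0.57 without PBS library 2, -0.61 with the trend removed), and Mrps12 was the member called. Mrpl13 stood at 37.7, 56 and 38.2 with PBS and 14.1, 7.62 and 17.8 with dopamine, and Mrpl36 had -1.57. Import and protein quality genes had 16 of 44 lower and 0 higher (median -0.65, -0.44 without PBS library 2, -0.46 with the trend removed), such as Timm8b (-1.27).

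Enzymes that remove peroxides went the same way. The mitochondrial redox list had 11 of 28 lower and 0 higher without overlap (median -0.38, -0.39 without PBS library 2, -0.46 with the trend removed, 0.07 in the deposited TPM). Prdx4, a peroxiredoxin of the secretory pathway, stood at 99.1, 136 and 102 with PBS and 41.8, 39.6 and 31.7 with dopamine. Prdx2 stood at 377, 521 and 278 with PBS and 153, 82.8 and 149 with dopamine, and the thioredoxin gene Txn1 at 341, 666 and 364 and 191, 143 and 139. Gpx4, which repairs oxidised lipids, had -0.99. All 4 were without overlap. The list also holds enzymes that act mainly outside mitochondria, so these members do not speak for mitochondria alone.

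Carriers of the inner and outer membrane had 17 of 36 members lower and 3 higher without overlap (median -0.53, as without PBS library 2, and -0.45 with the trend removed). Slc25a4, which exchanges ATP for ADP, stood at 171, 253 and 173 with PBS and 97.4, 73.6 and 93.5 with dopamine. Mpc1, a subunit of the pyruvate carrier, had -1.04, the outer membrane channel Vdac3 -1.0 and Slc25a51, which brings NAD into mitochondria, -1.01. In the tricarboxylic acid cycle, 11 of 35 were lower and 4 higher (median -0.14, -0.31 without PBS library 2, -0.20 with the trend removed, 0.30 in the deposited TPM). Fh1, fumarate hydratase, stood at 46.4, 57.8 and 30.1 with PBS and 13.2, 17 and 18.5 with dopamine, while Pdp1, which switches pyruvate dehydrogenase on, stood at 4.5, 0 and 1.64 and 18, 5.64 and 16.1.

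Genes that set the number and shape of mitochondria did not follow the chain as a list. Fusion, fission and cristae genes had 4 of 30 lower and 2 higher without overlap (median -0.14, -0.08 without PBS library 2, -0.19 with the trend removed, 0.30 in the deposited TPM). Mfn1, which fuses outer membranes, stood at 23.3, 8.15 and 2.76 with PBS and 0.612, 0.749 and 2.38 with dopamine, and Fis1, a fission factor, had -1.02. The cristae proteins Micos10 and Apool had -1.01 and -1.05. Biogenesis and mitochondrial DNA upkeep had 3 of 20 higher and 2 lower (median 0.30, 0.26 without PBS library 2, 0.05 with the trend removed). Ppargc1a, the co-activator of biogenesis, was listed at 0.359 in dopamine library 1 and at 0 in the other 5 libraries. Tfam, which packs mitochondrial DNA, overlapped at 5.58, 52.6 and 18.1 with PBS and 25.8, 29.8 and 14.6 with dopamine. Tefm, an elongation factor of mitochondrial transcription, was lower (-1.83) and the polymerase gene Polrmt higher (1.00).

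Among fuels, fatty acid uptake and oxidation had 13 of 28 members lower and 0 higher without overlap (median -0.48, -0.53 without PBS library 2, -0.48 with the trend removed). Eci2 and Hadh, enzymes of beta-oxidation, stood at 84.4, 106 and 74.6 with PBS and 46.8, 32.5 and 40.2 with dopamine, and at 87, 90.1 and 67.8 and 43.1, 32.6 and 42.6. Fabp5, a fatty acid carrier that Pparg controls, had -1.56. In lipid storage and synthesis 5 of 33 were lower and 5 higher (median -0.10, -0.15 without PBS library 2, -0.30 with the trend removed, 0.26 in the deposited TPM). Plin2, the coat of lipid droplets, stood at 155, 195 and 91.9 with PBS and 64.8, 91.2 and 50 with dopamine, and the lipase gene Mgll had -2.13, while Dgat1, which makes triglycerides, stood at 656, 196 and 348 and 898, 835 and 725. Glycolysis had 11 of 30 lower and 1 higher (median -0.12, -0.18 without PBS library 2, -0.29 with the trend removed, 0.20 in the deposited TPM), with Pgk1 at 289, 378 and 325 with PBS and 181, 142 and 161 with dopamine, Tpi1 at -1.11 and Ldha at -0.76. Gapdh, often used as a reference gene, was lower in all dopamine libraries (-0.87). Cholesterol synthesis and uptake had 5 of 30 lower and 2 higher without overlap (median 0.01, -0.06 without PBS library 2, -0.29 with the trend removed). In the deposited TPM the median was 0.35. Fdps and Mvd, among the lower members, had -1.32 and -1.12.

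The arginase and polyamine list had 7 of 17 members lower and 3 higher without overlap (median -0.39, -0.32 without PBS library 2, -0.41 with the trend removed, 0.04 in the deposited TPM). Arg1 feeds ornithine into it and was lower, as above, while Odc1, the rate-limiting enzyme, stood at 31.2, 32 and 127 with PBS and 149, 170 and 278 with dopamine (1.90). Amd1, which supplies the next building block, stood at 28, 6.78 and 33.6 with PBS and 49.5, 63.1 and 61 with dopamine (1.56). Eif5a, the protein that polyamines modify, was lower (-0.76). Phgdh, the first enzyme of serine synthesis, stood at 175, 220 and 113 with PBS and 57.5, 34.1 and 51.7 with dopamine (-1.78), and Psat1, which acts next, had -1.59. In the same list of one-carbon and nucleotide synthesis, 13 of 33 were lower and 3 higher without overlap (median -0.35, -0.39 without PBS library 2, -0.37 with the trend removed). In the deposited TPM 5 were lower and 4 higher (median 0.07). Tyms, which makes thymidylate, had -1.72, and Mat2a, which makes the methyl donor S-adenosylmethionine, was higher at 54.6, 22.5 and 30.5 with PBS and 102, 105 and 105 with dopamine. For amino acid transport and mTORC1, 5 of 38 were higher and 11 lower (median -0.13, as without PBS library 2, and -0.24 with the trend removed), with the glutamine transporter Slc38a2 at 1.43, the arginine sensor Castor1 at -1.36 and Lamtor5 at -1.52. Of the 38, 2 were under 1 rescaled TPM in all dopamine libraries and so were tested only because of the PBS libraries. Of the other 36, 5 were higher and 9 lower (median -0.10).

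Mitosis and cell cycle genes had 21 of 49 lower and 1 higher without overlap (median -0.63, -0.50 without PBS library 2, -0.93 with the trend removed). Ccnb2 stood at 79.1, 104 and 43.4 with PBS and 10.2, 18.6 and 8.89 with dopamine, and Ube2c, which helps destroy mitotic proteins, at 85.7, 170 and 90.3 and 41.9, 21.4 and 14.9. Birc5 had -2.35 and Spc24, a kinetochore protein, -2.81. Within this list too the values went with length. Its 10 members in the shortest bin had a median of -1.94 with 8 lower, and the 13 in the bin next to the longest -0.22 with 2 lower and 1 higher. Mki67, whose transcript is long, overlapped at 7.52, 4.32 and 2.53 with PBS and 5.5, 2.29 and 4.29 with dopamine. DNA replication genes had 5 of 41 lower and 1 higher (12.2% and 2.44%, median -0.50, -0.40 without PBS library 2, -0.43 with the trend removed), and the higher one was the licensing factor Cdt1 (1.29).

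Cytosolic ribosome proteins had 62 of 81 members lower and 0 higher without overlap (median -0.78, -0.53 without PBS library 2). With quantile normalization the median was -0.09 with 28 lower and 3 higher, and with the trend removed -0.42 with 43 lower and 1 higher. Rpl28 stood at 2891, 6112 and 4264 with PBS and 1831, 1414 and 1667 with dopamine. Rps27l, a p53-induced relative of a ribosomal protein, had -2.03. Ribosome biogenesis genes were on both sides, 10 of 51 higher and 13 lower (median 0.16, 0.03 without PBS library 2, 0.11 with the trend removed), where Gar1 and Nhp2, which modify ribosomal RNA, had -2.0 and -1.48 and the nucleolar protein Npm1 -1.14. The proteasome had 27 of 46 lower and 0 higher (median -0.69, -0.50 without PBS library 2, -0.51 with the trend removed), with Psmb7 at 103, 174 and 125 with PBS and 57.7, 54.2 and 57.8 with dopamine, and the immune subunit Psmb9 at -1.05.

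Galectins, S100 proteins, annexins and vimentin, abundant in effector lymphocytes, had 14 of 20 members lower and 0 higher (median -0.93, -0.70 without PBS library 2, -0.49 with the trend removed). S100a13 stood at 202, 300 and 235 with PBS and 98.1, 92.9 and 130 with dopamine. Anxa4 had -1.34 and Anxa1, which limits inflammation, -1.03. Host genes of small nucleolar RNAs had 6 of 15 lower and 0 higher (median -0.48, -0.33 without PBS library 2) and 3 lower and 1 higher with the trend removed (median -0.14), with Zfas1 at -1.33 and Gas5 at -0.78.

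Of the clock genes, 6 of 19 were higher and 1 lower without overlap. Their median was 0.84, with 0.85 once PBS library 2 was left out and 0.73 with the trend removed. Arntl, the activator of the clock, stood at 12.5, 3.69 and 7.61 with PBS and 30.1, 25.7 and 25.9 with dopamine. Nr1d1, which represses Arntl, stood at 5.01, 2.39 and 21.6 with PBS and 23.4, 63.9 and 44.7 with dopamine, and Tef, an output gene of the clock, had 1.75. Arntl and its repressor were thus higher together. Long chromatin modifiers had 20 of 49 higher and 1 lower (median 0.52, 0.40 without PBS library 2), and with the length and GC trend removed 7 higher and 5 lower (median 0.05). In metal handling, 3 of 14 were lower and 1 higher without overlap (median -0.22, -0.33 without PBS library 2, -0.42 with the trend removed, 0.15 in the deposited TPM). The importer Slc11a2 (-1.30) and Mt2 were among the lower ones.

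The 13 ILC2 markers summed to between 3645 and 4644 rescaled TPM with PBS and between 3035 and 4372 with dopamine, and none was under 1 in all libraries. Of the 13, Il7r, Ptprc and Id2 were higher and Gata3, Il5 and Il13 lower without overlap (23.1% each), so the sums hold opposite differences (median -0.17, -0.18 without PBS library 2, -0.32 with the trend removed). The 29 NK cell and ILC1 markers summed to 248, 427 and 1834 with PBS and 2628, 2928 and 1644 with dopamine, with 14 of 24 tested members higher and 0 lower without overlap (median 2.33, 1.84 without PBS library 2, 2.27 with the trend removed). Of the 24, 4 were under 1 in all PBS libraries and were tested only because of the dopamine libraries; of the other 20, 10 were higher and 0 lower (median 2.33). Klra9, an NK receptor among those 4, was at 0 throughout the PBS group and at 6.42, 9.8 and 5.57 with dopamine, and Klre1, also among them, at 0 and at 5.48, 13.1 and 1.96. Gamma delta T cell markers summed to 96.8, 148 and 355 with PBS and 337, 809 and 785 with dopamine, with 5 of 9 higher (median 2.95, 2.13 without PBS library 2, 2.71 with the trend removed). The scavenger receptor gene 5830411N06Rik stood at 3.2, 5.27 and 58.6 with PBS and 84.4, 237 and 151 with dopamine. Trdc had a log2 fold change of 2.30 and the transcription factor Sox13 1.96. In these lists PBS library 3 was the highest PBS library.

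T cell markers, 19 in all, summed to 1259, 2373 and 2426 with PBS and 1822, 2396 and 2059 with dopamine, and 3 of the 16 tested were higher without overlap (median 0.62, 0.65 without PBS library 2, 0.63 with the trend removed). T cell receptor genes varied from library to library. Segments of the receptor chains were listed above 0 for 6, 5 and 25 genes with PBS and for 15, 35 and 27 with dopamine. The constant gene Trac stood at 12.8, 15.7 and 47.5 with PBS and 67.8, 127 and 101 with dopamine (2.11). Cd3e, a chain of the receptor complex, overlapped at 3.84, 9.98 and 52.8 with PBS and 39.2, 145 and 87.7 with dopamine, as did Cd3d at 1.61, 10.7 and 55.9 and 34.7, 154 and 86.2. Cd3g and Trbc2 were high in all libraries, at 143 to 332 and 514 to 1020. The 8 receptor segments and genes of natural killer T cells summed to 0.47, 0.762 and 17.5 with PBS and 30.6, 150 and 73.8 with dopamine; of them Trav11 and Traj18 were at 0 in all 6 libraries. Zbtb16, a factor of natural killer T cells and of innate lymphoid precursors, stood at 0.47, 0.762 and 0.981 with PBS and 2.4, 14.7 and 7.27 with dopamine. Markers of ILC3s had 4 of 14 higher and 0 lower (median 1.3, 0.94 without PBS library 2, 1.20 with the trend removed), with Il17f at 1.80 and Il23r at 2.33. Ptprc, the CD45 gene of all leukocytes, stood at 111, 32.7 and 42.5 with PBS and 135, 170 and 151 with dopamine (1.48). The part of other lymphocytes in the higher receptor, migration and cytotoxic genes was not tested.

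**Figure D4:**
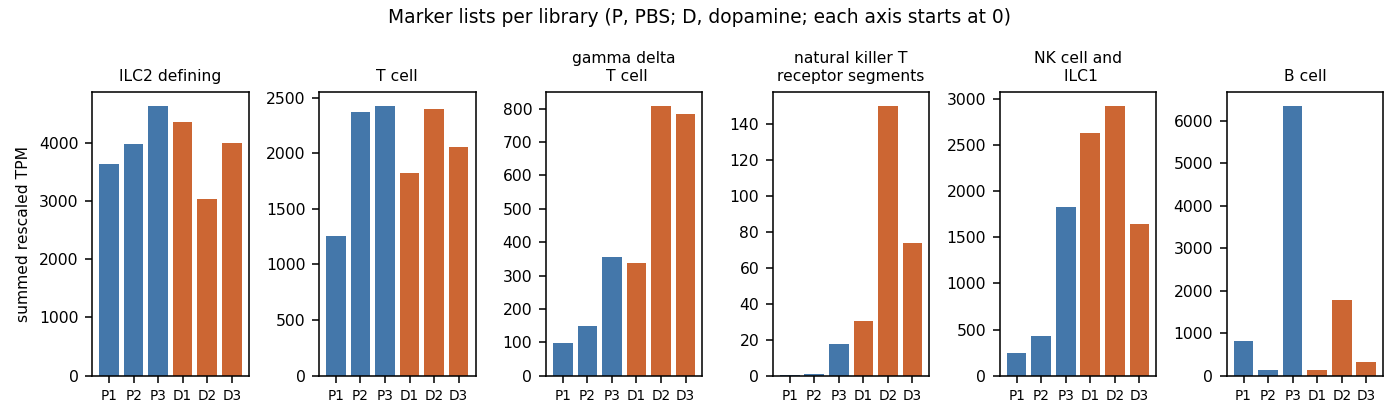
Summed rescaled TPM of 6 marker lists in each bulk library (P1 to P3, IL-33 plus PBS; D1 to D3, IL-33 plus dopamine); bars start at 0 and each panel has its own axis. ILC2 markers lie between 3035 and 4644, while NK cell and ILC1 markers go from 248 in PBS library 1 to 2928 in dopamine library 2.

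B cell markers summed to 818, 142 and 6353 with PBS and 129, 1776 and 318 with dopamine, led by the light chain gene Igkc (34.1 to 5888 with PBS, 12.8 to 1275 with dopamine). The immunoglobulin segment Ighv1-81 was listed at 310, 9.11 and 812 with PBS and at 0 with dopamine. Macrophage and monocyte markers summed to 343 to 1701 and 470 to 1303, led by Ctsd, which other cells express too, and 4 of the 22 were at 0 throughout, C1qa among them. Neutrophil markers summed to 168 to 525 with PBS and 166 to 449 with dopamine, led by Il1b, with S100a8 and Ly6g at 0 in all libraries. Basophil and mast cell markers, led by Hdc, reached 244 to 659 and 445 to 734, and dendritic cell markers, led by H2-Ab1, 547 to 852 and 544 to 688. ILC3 markers, led by Ltb, summed to 469 to 745 and 511 to 831. Low sums of 3 other lists lay apart between the groups, each at the smallest possible exact permutation p, 0.1. Lung epithelium markers summed to 14.7, 17 and 17.8 with PBS and 28.7, 49.4 and 24.2 with dopamine (Epcam at most 13.6), with 8 of the 18, Sftpb among them, at 0 in all libraries. Fibroblast and smooth muscle markers summed to 12.1, 4.33 and 9.57 with PBS and 39.4, 25.6 and 14.6 with dopamine (Fn1 at most 37.9), with 9 of the 16, Col1a1 among them, at 0 throughout. Erythroid and platelet markers were lower, at 60, 97.9 and 73.4 with PBS and 56.1, 53.5 and 48.5 with dopamine (Hba-a1 at most 88.1). Endothelial markers overlapped at 14.4 to 30.3 and 22 to 33.9 (Pecam1 at most 24.5), and eosinophil markers summed to 3.45 to 11 and 11 to 35.9 (Alox15 at most 24.9). The part of these cells in the results was not tested. Tff1, a peptide of mucous epithelium, was looked up after its values were seen; it stood at 318, 647 and 63.1 with PBS and 24.1, 2.59 and 1.69 with dopamine.

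The droplet pool gives a second measurement of the same contrast in male mice, with 3 hashtags of IL-33 (1092 to 1516 cells each) and 3 of IL-33 plus dopamine (1197 to 1475 cells). The labels do not say whether a hashtag is 1 mouse. By edgeR's quasi-likelihood test on summed UMI counts of 10559 genes, 0 passed as higher (0%) and 3 as lower (0.0284%), while 4.81% were higher and 4.66% lower at an unadjusted p under 0.05. DESeq2 on the same sums called 11 as higher and 15 as lower. By edgeR, 1 gene was lower without hashtag 3 or 4 and 13 without hashtag 7, and 3 were higher without hashtag 6 or 7. The 3 called with all hashtags were Ltb4r1, Cd3g and Actn2. Ltb4r1, lower in bulk as well, stood at 313, 293 and 325 CPM (UMI counts scaled to the same total per hashtag) with IL-33 and fell to 227, 208 and 184 with dopamine (log2 fold change -0.59, adjusted p = 0.0293 by edgeR). Its call ended when any of hashtags 3, 4, 5 or 8 was left out (adjusted p up to 0.29 by edgeR). Cd3g fell from 113, 93.7 and 103 to 49.8, 53 and 44.9 CPM (-1.07, adjusted p = 0.0014 by edgeR), where bulk values overlapped. Actn2, an actin crosslinker, had -1.16 (adjusted p = 0.00895, and 0.0854 and 0.112 without hashtag 3 or 4, by edgeR), and in bulk stood at 34.3, 47.1 and 125 with PBS and 133, 127 and 107 with dopamine.

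Several genes had the same sign in both measurements without passing in either. They are examples, and the share of all named genes with the same sign was not counted. Klrg1 stood at 141, 147 and 143 CPM with IL-33 and 113, 108 and 102 with dopamine (-0.41, adjusted p = 0.107 by edgeR), and Arg1 at 361, 268 and 279 and 223, 263 and 170 (-0.47). Ccnb2 (-1.51), Cdca3 (-1.69) and Ube2c (-1.72) were lower at levels of at most 10.9 CPM. Mki67 had -0.90, but its groups overlapped both in the droplets and in bulk (-0.17). Plin2 had -0.55, Psat1 -0.53, Cysltr2 -0.36, Ramp1 -0.18 and Lgals1 -0.66. On the higher side Odc1 stood at 477, 454 and 551 CPM with IL-33 and 659, 755 and 994 with dopamine (0.71), and Satb1 (0.52), Tef (0.52), Amd1 (0.33), Nr4a2 (0.30) and Fosl2 (0.32) lay on the same side as in bulk. The hashtag groups of Cysltr2, Lgals1, Nr4a2 and Fosl2 overlapped. Il5 lay on the other side from bulk, at 356, 560 and 501 CPM with IL-33 and 546, 733 and 770 with dopamine (0.54, adjusted p = 0.398 by edgeR). So did Tnf (-0.23), Klf10 (-0.21), Ccl5 (-0.16), Tnfrsf4 (0.37) and Il13 (0.16), and their hashtag groups overlapped. Cd3e was lower (-1.01) at 2.16 to 8.06 CPM. For Gata3, Pdcd1, Castor1, Zswim7, Zfp36, Ptger1 and Nr1d1 the groups lay apart in opposite directions in bulk and droplets.

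The list medians in the droplets lay close to 0. Complex I had 1 of 38 members lower and 0 higher at an unadjusted p under 0.05, and that member was Ndufv2 (-0.25). Complexes II and III, IV and V had medians of -0.06, -0.07 and -0.05, the mitochondrial ribosome -0.09 with 13 of 78 lower and 2 higher, and the cytosolic ribosome -0.03 with 5 of 81 lower. Galectins, S100 proteins and annexins had the lowest of the 24 list medians plotted, -0.16, with 7 of 19 lower, and mitosis genes -0.12 with 8 of 32 lower and 0 higher. AP-1 and immediate early factors had 0.15 with 9 of 29 higher and 0 lower, and cyclic AMP and CREB response genes 0.11 with 7 of 19 higher and 1 lower. Markers of NK cells and ILC1s had 0.05. The 2 measurements differ in sex, chemistry and the filtering of cells, and no joint test was made.

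**Figure D5:**
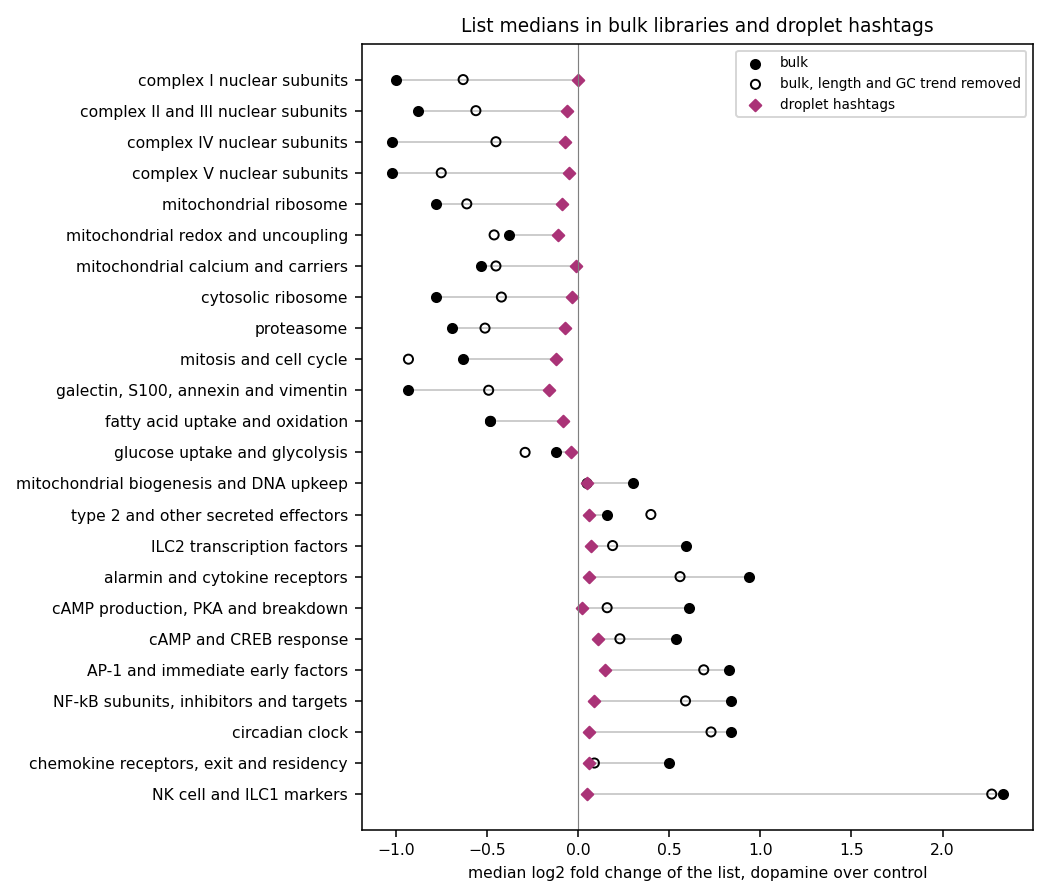
Median log2 fold changes of 24 gene lists in the bulk libraries (filled circles), in bulk with the length and GC trend removed (open circles) and in the droplet hashtags (diamonds). Complexes II to V lie at -0.88 to -1.02 in bulk and at -0.05 to -0.07 in the droplets, and NK cell and ILC1 markers at 2.33 and 0.05.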

How the data were processed

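Per the submitters' processing notes, cutadapt 2.10, STAR 2.7.5c, RSEM 1.3.3, Cell Ranger 6.1.1, Seurat 4.0.2 and the build mm10 were used; settings and annotation are not given in the sources used here. The authors deposited bulk values as TPM for 55413 genes, without counts, so depth is unknown. The droplet values were deposited as UMI counts per cell with a hashtag and treatment for each cell; they were summed per hashtag (5828078 to 9268932 UMIs).

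TPM were rescaled by median-of-ratios factors and tested with limma 3.58.1 (trend) on log2(rescaled TPM + 1), over genes with a rescaled TPM of at least 1 in at least 3 libraries; hashtag sums with edgeR 4.0.16 (TMM, filterByExpr). p-values measure the spread between these libraries or hashtags. Tested on simulated data, limma recovered 49.5% of 200 genes with a log2 change of 2 (10767 genes, 4 false calls) in the bulk design, and edgeR 100% of 200 genes changed 2-fold in the droplets (10547 genes, 14 false calls). In both, the changed genes were drawn only from genes above a minimum level. The droplet simulation gave all genes the same dispersion, and the bulk simulation held no shift common to a library. The recovered shares therefore do not carry over to low or more variable genes.

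The comparison, the 74 gene lists (58 functional, 16 of markers; 2215 of 2225 symbols matched) and the rules were chosen with earlier results of these data known. Named were the 12 genes per direction with the smallest p, a mean of at least 10 and no overlap (predicted genes only where called), up to 4 members per list by p, fixed genes of interest, and the most abundant marker of each list. Coordinates are from GENCODE M21 (GRCm38). Some genes of these lists are not reported here.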

Additional observations from a re-analysis of the deposited data

Results flagged for a closer look

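Of the named genes, 7 had bulk groups without overlap in one direction and hashtag groups without overlap in the other. For none was the difference between bulk and droplets tested, and bulk and droplet mice differed in sex.

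Gata3 was lower in all bulk dopamine libraries after rescaling (log2 fold change -0.56), overlapped between groups in the deposited TPM and with quantile normalization (-0.11 in each), and was higher in all dopamine hashtags, at 806, 769 and 822 CPM with IL-33 and 838, 918 and 1116 with dopamine (0.27). Pdcd1 was lower in bulk (-1.26) and higher in the droplets (0.37), at 179, 173 and 148 CPM against 184, 237 and 222. Nr1d1, the clock repressor, was higher in bulk (2.43) and lower in the droplets (-0.67), at 10.1, 13.4 and 12.6 CPM against 7.36, 7.71 and 7.41, while its relative Nr1d2 overlapped in the droplets (0.16). Zfp36 was higher in bulk (1.47) and lower in the droplets (-0.31), Ptger1 likewise (1.81 and -0.65, at most 2.4 CPM), and Castor1 (-1.36 and 0.33) and Zswim7 (-2.46 and 0.44) the reverse.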

How the results depend on the processing

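The count of genes called by limma as higher with dopamine was 3, and it was 10 with quantile normalization, 1 with a pseudocount of 5, 0 without the filter on low values, 1 with a mean rescaled TPM of at least 5, 6 without limma's trend and 226 with array weights. The count called as lower was 2, and it was 0 in the deposited TPM, 11, 0, 4, 5 and 257 with quantile normalization, no filter, the mean filter, no trend and array weights, and 1 with the length and GC trend removed. Leaving out 1 library at a time gave 0 to 429 higher and 0 to 446 lower. Replicate numbers did not pair the libraries, since same-numbered libraries correlated at 0.0105, -0.0766 and -0.00268, and with the replicate block limma called 0 higher and 0 lower (1146 and 1141 at an unadjusted p under 0.05).

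In the deposited TPM the groups of 2634 genes lay apart with dopamine above and of 737 with dopamine below, against 1669 and 1553 after rescaling. Leaving out 1 library gave 1886 to 2888 and 1788 to 2337. Groups of fewer libraries lie apart more easily, so these larger counts are no support. In the droplets DESeq2 called 11 higher and 15 lower, against 0 and 3 by edgeR, and leaving out 1 hashtag gave 0 to 3 and 1 to 13.

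Of 182 named bulk genes, 175 kept their direction in every setting in which they could be fitted. The 7 others all had overlapping groups. Of the 182, 165 were without overlap after rescaling with all libraries. That makes a kept direction likely beforehand, so it is no separate support. Leaving out 1 library at a time, Il4 ran from -0.13 (without PBS library 2) to 0.59, Csf2 from -0.86 to 0.69 (0.52 and 0.16 without PBS libraries 1 and 3), Il1rl1 from -0.49 to 0.20 (0.09 without dopamine library 2), Tfam from -0.45 (without PBS library 1) to 1.05, Mki67 from -0.48 to 0.16 (0.12 without dopamine library 2), and Cd3g from -0.24 to 0.30 (-0.08 without dopamine library 2). In the deposited TPM Csf2, Il1rl1, Mki67 and Trbc2 were at 0.09, 0.28, 0.18 and 0.25. With array weights Csf2, Il1rl1, Mki67 and Cd3g were at 0.02, 0.17, 0.17 and -0.07. With quantile normalization Il1rl1 and Trbc2 were at 0.06 and 0.26, and with the trend removed Csf2 and Trbc2 at 0.40 and 0.42. Of 165 named genes without overlap, the groups were apart in the same direction for 150 in the deposited TPM, 154 with quantile normalization, 153 with the trend removed and 161 without PBS library 2. Of those named in the text, Dusp4, Il5, Il13, Penk, Gata3, mt-Atp6, Mfn1, Fabp5, Plin2, Mgll, Psat1, Anxa1 and Slc11a2 were not apart in the deposited TPM. Il5, Gata3, mt-Atp6, mt-Cytb, Ldha, Gapdh, Plin2, Eif5a, Gas5 and Il17f were not apart with quantile normalization. Prkacb, Crebbp, Pde4b, Il5, Il13, Penk, mt-Atp6, Coa3, Polrmt and Plin2 were not apart with the trend removed. Micos10, which had no length in the annotation, could not be fitted there and was counted as not apart. Likewise, Cenps, Crabp2 and Myl4 were not tested without PBS library 2 and were counted as not apart in that setting. Groups that lie apart can otherwise come to overlap in that setting only through the new scaling, so the 161 are no separate support. Of 29 named genes followed through the droplet settings, none changed direction. The cause of these shifts was not tested. The depth of the bulk libraries is unknown, so no limit is given for genes listed at 0, and 3 libraries a group allow no exact p under 0.1.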
